A study of Mus musculus with 6 samples.

Results

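DNA replication and S phase genes encode the proteins that licence replication origins, open and copy DNA, supply its building blocks and rebuild chromatin behind the fork. A list of 34 such genes was followed here. Each of the 34 symbols matched exactly 1 Ensembl gene ID among the 55401 in the table, and all 34 passed the low-count filter. They were measured in 6 mouse bulk RNA libraries of 2000 sorted bone marrow cells each, 3 per group. The ESC-derived group held Lin-Sca-1+c-Kit- cells, labelled wild type, sorted from the marrow of primary recipients that had received CD144+ cells made from embryonic stem cells (treatment label: ESCs differentiation). The LSK group held Lin-Sca-1+c-Kit+ cells, labelled wild type and untreated, from the marrow of C57BL/6 mice aged 6 to 8 weeks. Stem cells and multipotent progenitors of blood lie in this fraction of the marrow. The recipients' strain, age and conditioning, and whether cells of several animals were pooled, are details that the sources used here do not give. Nothing in the labels says that replicates came from separate animals, so p-values measure the spread between these libraries, which may be technical.

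DNA replication is prepared in G1, when the origin recognition complex, Cdc6 and Cdt1 load the ring of Mcm2 to Mcm7 onto DNA, and it starts in S phase when Cdc45 and the GINS complex turn that ring into a moving helicase. Many of these genes are transcribed at the G1 to S transition by E2F factors, which are held back by RB family proteins until cyclin-dependent kinases act. In bone marrow most stem cells are quiescent and multipotent progenitors divide more often, so RNA of a sorted fraction is a mean over cells in and out of cycle. In bulk samples, fewer cycling cells and less of a transcript per cell cannot be told apart.

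Total estimated counts ran from 46299936 to 49269286 in the ESC-derived libraries and from 41580006 to 44481252 in the LSK libraries. Kit, the gene behind the c-Kit gate, had 2, 4 and 6 counts in ESC-derived libraries and 2081, 2171 and 2550 in LSK libraries. The libraries labelled ESC-derived Lin-Sca-1+c-Kit- had high levels of T cell transcripts. All 15 T cell markers tested rose, with a summed level of 15671 to 16676 CPM (counts scaled to a common library total) in ESC-derived and 268 to 303 CPM in LSK libraries. Of 12 stem and progenitor markers 10 fell (summed 0.428 to 11.7 CPM in ESC-derived against 1951 to 2011 CPM in LSK libraries, with Hoxa9 at 0 in ESC-derived libraries). B cell markers fell in 7 of 10 cases (7.52 to 15.1 CPM in ESC-derived against 647 to 663 CPM in LSK libraries, Igll1 at 0 in ESC-derived libraries). Plasma cell markers fell in 6 of 8 and rose in 1 (97.9 to 119 CPM in ESC-derived against 4236 to 4968 CPM in LSK libraries, Tnfrsf17 at 0 in ESC-derived libraries). Jchain alone averaged 4289 CPM in LSK libraries, where the plasma cell sum averaged 4635 CPM. Cytotoxic lymphocyte markers rose in 10 of 10 cases (14929 to 18225 CPM in ESC-derived and 576 to 637 CPM in LSK libraries) and neutrophil markers in 7 of 9 (2264 to 4362 CPM in ESC-derived against 1066 to 1182 CPM in LSK libraries). Megakaryocyte markers fell in 4 of 6 cases (1.42 to 3.85 CPM in ESC-derived against 34.4 to 57.4 CPM in LSK libraries, Gp9 and Ppbp at 0 in ESC-derived libraries). Endothelial markers fell in 4 of 7 (30.3 to 63.3 CPM in ESC-derived against 240 to 315 CPM in LSK libraries). Cdh5 had too few counts to be tested, with 0 in every ESC-derived library and 0, 0 and 8 in LSK replicates 1 to 3. Of 8 monocyte markers 2 rose and 1 fell (576 to 911 CPM in ESC-derived against 852 to 915 CPM in LSK libraries), and of 9 erythroid markers 1 fell (99.3 to 726 CPM in ESC-derived against 298 to 345 CPM in LSK libraries, Alas2 at 0 in both groups and Hemgn in ESC-derived libraries). The part of these cell types in the changes below was not tested. LSK replicate 2 lay between LSK replicates 1 and 3 for 67.6% of the 3304 genes averaging at least 50 CPM, a share that ran from 15.5 to 39.2% for the other 5 libraries. Of the 34 genes, 28 had LSK replicate 2 between the other two. Results are therefore also given without LSK replicate 2.

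The 34 genes did not move as a block. In ESC-derived relative to LSK cells 11 fell, 4 rose and 19 did not pass the test (edgeR quasi-likelihood, adjusted p under 0.05 over all genes tested). The fallen genes include helicase subunits (Mcm2, Mcm3, Mcm6, Mcm7), polymerase catalytic subunits (Pola1, Pold1), the ligase Lig1 and the activator E2f1, and the risen ones are Ccne1, Rrm2, Rpa2 and Slbp. Called genes in either direction made up 30.0% of all genes tested. The 11 falls are 32.4% of the list, beside 15.2% of all 16211 genes called lower. The 4 rises are 11.8% of the list, beside 14.8% of all genes called higher. Among the 10899 tested genes within the same range of mean CPM, 16.1% fell and 18.1% rose. The median log2 fold change of the list was -0.40, against -0.07 over all genes tested, with single genes from -2.01 (Cdca7) to 1.94 (Ccne1). In 14 of the 34 genes every ESC-derived library lay below every LSK library, beside 27.2% of all genes, and in 4 genes every ESC-derived library lay above, beside 22.6%. Groups without overlap, in either direction, made up 49.8% of all genes. The summed level of the list was 3005, 3070 and 3100 CPM in ESC-derived replicates 1 to 3, against 3442, 3516 and 3562 CPM in LSK replicates 1 to 3. Without LSK replicate 2, 7 genes fell and 3 rose, beside 7.34% and 8.61% of all genes, and scaling by library totals alone gave 16 falls and 3 rises, beside 18.9% and 10.8% of all genes.

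**Figure D1:**
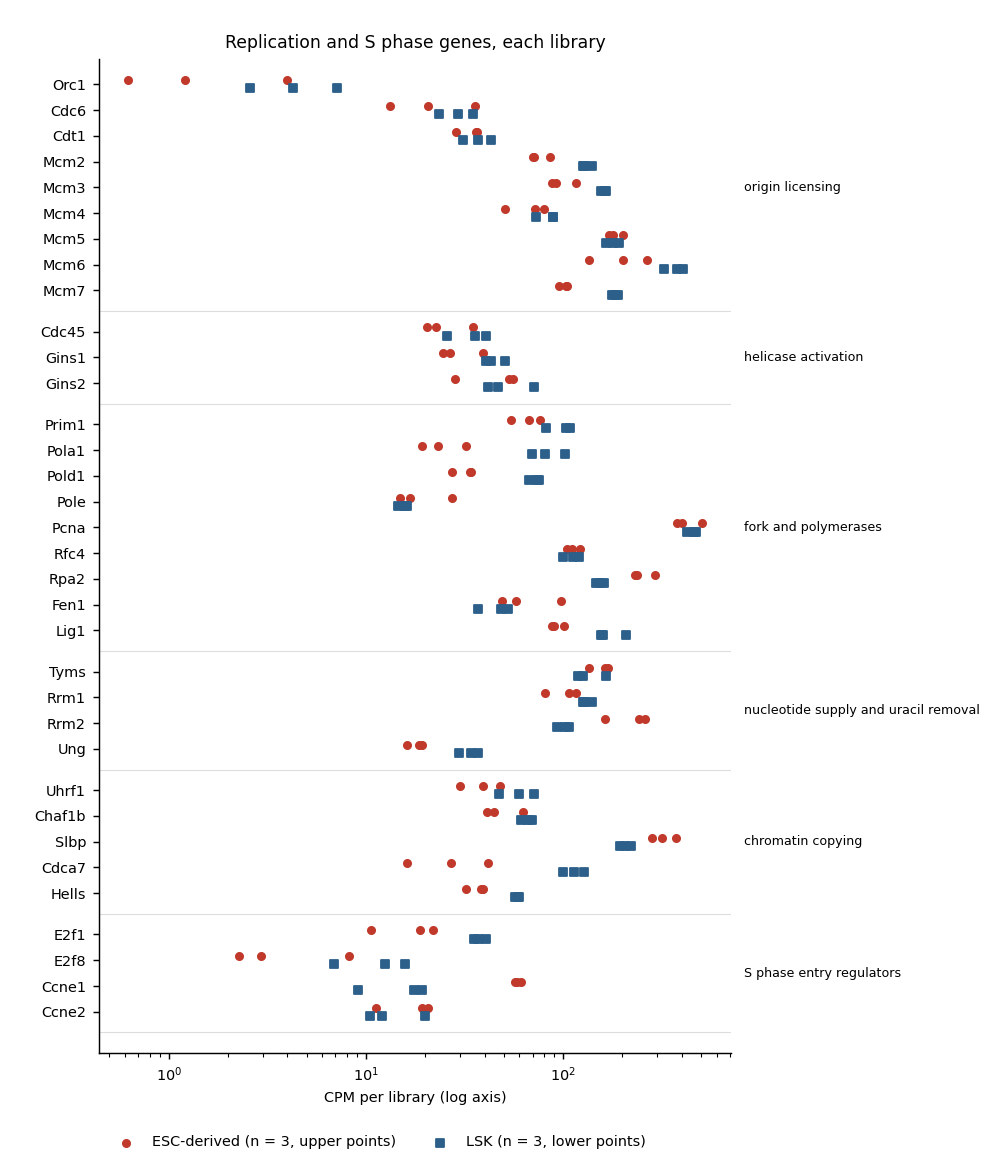
Level of each of the 34 genes in each library, in CPM on a log axis, with ESC-derived libraries as circles above LSK libraries as squares. Ccne1 lay at 56.9 to 61.4 CPM in ESC-derived and 9.10 to 19.3 CPM in LSK libraries, while the Pcna ranges overlap.

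Of the 9 origin licensing genes, 4 fell and 0 rose by edgeR (no rises at an unadjusted p under 0.05 or by DESeq2 or voom either), with a median log2 fold change of -0.71. Those calls are 44.4% of the group, beside 15.2% lower and 14.8% higher over all genes, and came from the Mcm ring, the replicative helicase core. Mcm7 had 105, 103 and 94.9 CPM in ESC-derived replicates 1 to 3, against 176, 184 and 191 CPM in LSK replicates 1 to 3 (log2 fold change -0.86 ± 0.11, SE here and below, edgeR adjusted p = 0.00145). The groups did not overlap, and Mcm7 was 1.82-fold higher in LSK cells. Mcm7 shares 321 exon bases with Ap4m1 and 64 with Cops6, both on the opposite strand. Mcm2 had 71.5, 70.6 and 86.3 CPM in ESC-derived libraries and 126, 127 and 140 CPM in LSK libraries (-0.78 ± 0.13, edgeR adjusted p = 0.00558). For Mcm3 the values were 87.8, 116 and 92.2 CPM in ESC-derived and 164, 165 and 155 CPM in LSK libraries (-0.71 ± 0.14, edgeR adjusted p = 0.0101). Mcm6 (ENSMUSG00000026355, chr1:128331590-128359664, minus strand, mm10), with 135, 200 and 266 CPM in ESC-derived and 323, 380 and 406 CPM in LSK libraries, also fell (-0.88 ± 0.24, edgeR adjusted p = 0.0344). The Mcm6 groups did not overlap, and its call was lost without ESC-derived replicate 2 or without any one of the LSK libraries. The remaining ring subunits did not pass: Mcm4 averaged 67.8 ± 15.5 and 83.6 ± 9.12 CPM (SD, n = 3 per group here and below) in ESC-derived and LSK cells (-0.30 ± 0.20), and Mcm5 averaged 184 ± 15.9 and 179 ± 14.1 CPM (0.04 ± 0.12). Summed over the 6 subunits, the ring had 659, 712 and 814 CPM in ESC-derived libraries, against 1042, 1123 and 1158 CPM in LSK libraries.

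The 3 loaders of the ring did not pass. Cdt1, which brings the ring to DNA, averaged 33.7 ± 4.40 CPM in ESC-derived and 37.0 ± 6.11 CPM in LSK cells (-0.13 ± 0.20). Cdc6, the ATPase that works with it, averaged 23.3 ± 11.6 and 29.2 ± 5.78 CPM in ESC-derived and LSK cells (-0.33 ± 0.38). Orc1, the large subunit of the origin recognition complex, had 0.618, 3.99 and 1.20 CPM in ESC-derived libraries and 2.60, 4.25 and 7.16 CPM in LSK libraries (-1.27 ± 0.85). The groups overlap in all 3 loaders, and the SE of Orc1 is wide at this level. Orc1 shares 376 exon bases with Gm12743 on the opposite strand.

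Mcm6 and Mcm5 are shown together because they belong to the same ring and hold the same kind of E2F sequence in their promoters, while Mcm6 fell and Mcm5 did not pass. The 250 bases before each RefSeq start are given 5′ to 3′ on the gene's strand (RefSeq, GRCm38.p6, the assembly of mm10). Capitals mark the E2F sequences TTTCGCGC, TTTGGCGC and TTTCCCGC and the CCAAT box, on either strand. In each promoter 2 of the E2F sequences overlap on opposite strands and form a run of 12 bases, 110 bases before the start in Mcm6 (chr1:128359706-128359955, minus strand) and 153 bases before it in Mcm5 (chr8:75109259-75109508, plus strand). Mcm6 has a further E2F sequence 47 bases before the start, and each promoter has 2 CCAAT boxes.
Mcm6: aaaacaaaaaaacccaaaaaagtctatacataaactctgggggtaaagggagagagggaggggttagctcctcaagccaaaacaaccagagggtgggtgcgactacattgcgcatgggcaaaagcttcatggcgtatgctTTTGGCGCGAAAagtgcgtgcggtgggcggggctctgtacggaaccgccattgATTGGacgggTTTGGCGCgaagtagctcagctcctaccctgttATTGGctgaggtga
Mcm5: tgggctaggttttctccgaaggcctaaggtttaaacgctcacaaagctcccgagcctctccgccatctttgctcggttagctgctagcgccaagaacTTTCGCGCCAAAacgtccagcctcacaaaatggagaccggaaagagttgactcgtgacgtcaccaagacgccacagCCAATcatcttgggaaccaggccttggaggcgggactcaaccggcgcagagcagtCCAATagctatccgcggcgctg

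The genes that activate the helicase did not pass, while 30.0% of all genes tested were called. Of Cdc45, Gins1 and Gins2, 0 rose and 0 fell by edgeR (1 lower at an unadjusted p under 0.05, 0 by DESeq2 and voom), with log2 fold changes of -0.39 ± 0.29, -0.57 ± 0.23 and -0.22 ± 0.32. Gins2, the highest of them, had 53.0, 55.5 and 28.3 CPM in ESC-derived libraries, against 71.1, 46.7 and 41.8 CPM in LSK libraries. The Gins2 groups overlap, and its exons share 2758 bases with Gse1 on the opposite strand, which a library without strand cannot separate. Gins1, another subunit of the GINS complex, averaged 30.2 ± 8.02 CPM in ESC-derived and 44.7 ± 5.14 CPM in LSK cells, and its groups do not overlap. It passed as lower with library totals only and without ESC-derived replicate 2. Cdc45 averaged 26.1 ± 7.85 and 34.1 ± 7.58 CPM in ESC-derived and LSK cells, and shares 209 exon bases with Ufd1 on the opposite strand.

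Fork proteins moved in both directions. Of 9 genes, 3 fell, 1 rose and 5 did not pass, with a median of -0.08. The falls are 33.3% and the rise 11.1% of the group, beside 15.2% and 14.8% of all genes. Pola1 (ENSMUSG00000006678, chrX:93304767-93632155, minus strand, mm10), the catalytic subunit of the polymerase that extends primers, had 19.3, 23.1 and 32.3 CPM in ESC-derived libraries, against 69.3, 81.2 and 102 CPM in LSK libraries, and was 3.38-fold higher in LSK cells (-1.76 ± 0.25, edgeR adjusted p = 0.00298). Pold1, the catalytic subunit of the lagging-strand polymerase delta, had 27.4, 34.2 and 33.6 CPM in ESC-derived and 67.2, 73.4 and 75.8 CPM in LSK libraries (-1.19 ± 0.16, edgeR adjusted p = 0.00221). Lig1, which seals Okazaki fragments, had 90.3, 101 and 87.8 CPM in ESC-derived libraries and 208, 160 and 156 CPM in LSK libraries (-0.91 ± 0.15, edgeR adjusted p = 0.00522). In these 3 genes the groups do not overlap, and Lig1 shares 247 exon bases with Zswim9 on the opposite strand. Rpa2, a subunit of the single-strand binding protein RPA, went the other way, with 231, 291 and 237 CPM in ESC-derived and 161, 154 and 147 CPM in LSK libraries (0.71 ± 0.12, edgeR adjusted p = 0.00626).

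Pcna, the sliding clamp and the most abundant transcript of the list per length, had 509, 400 and 376 CPM in ESC-derived libraries and 426, 460 and 474 CPM in LSK libraries (-0.08 ± 0.14). Its groups overlap. The pseudogene Pcna-ps2 drew 601 counts over the ESC-derived and 588 over the LSK libraries. Rfc4, of the clamp loader, averaged 113 ± 8.99 CPM in ESC-derived and 111 ± 10.4 CPM in LSK cells (0.02 ± 0.13). Rfc4 shares 194 exon bases with Eif4a2 on the opposite strand, which drew 17954 counts. Pole, the catalytic subunit of the leading-strand polymerase, averaged 19.6 ± 6.63 and 15.5 ± 0.823 CPM in ESC-derived and LSK cells (0.34 ± 0.30). Prim1, the primase subunit that makes the RNA primer, lay below in every ESC-derived library, with 66.0 ± 10.9 CPM in ESC-derived and 97.6 ± 14.0 CPM in LSK cells, and missed the threshold (-0.57 ± 0.18, edgeR adjusted p = 0.0572). It passed, as lower, under 6 of 17 alternatives. Fen1, the flap nuclease, averaged 68.5 ± 26.1 CPM in ESC-derived and 46.0 ± 8.05 CPM in LSK cells (0.57 ± 0.29). ESC-derived replicate 1 was the highest, at 98.1 CPM, against 58.0 and 49.2 CPM in replicates 2 and 3. Fen1 shares 1909 exon bases with the antisense gene Gm10143 and 130 with Tmem258, which drew 84680 counts.

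The Pola1 promoter is shown because Pola1 had the largest fall among the fork genes. The 250 bases before its start (chrX:93632156-93632405, minus strand) hold 1 E2F sequence, 138 bases before the start, and 1 CCAAT box, both read on the opposite strand and in capitals as above.
Pola1: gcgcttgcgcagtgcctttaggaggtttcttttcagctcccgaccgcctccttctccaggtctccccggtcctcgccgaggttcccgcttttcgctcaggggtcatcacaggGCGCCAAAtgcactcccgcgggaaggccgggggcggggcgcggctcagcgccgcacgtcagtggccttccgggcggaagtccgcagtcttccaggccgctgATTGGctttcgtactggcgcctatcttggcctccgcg

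Of 4 genes of nucleotide supply and uracil removal, 1 rose, 1 fell and 2 did not pass. Each direction is 25% of the group, beside 14.8% of all genes called higher and 15.2% called lower. Ribonucleotide reductase, which makes deoxynucleotides, pairs a large subunit from Rrm1 with a small subunit from Rrm2 whose amount limits the enzyme in cycling cells. Rrm2 (ENSMUSG00000020649, chr12:24708241-24714146, plus strand, mm10) had 164, 242 and 259 CPM in ESC-derived libraries, against 103, 108 and 93.3 CPM in LSK libraries, a 2.19-fold rise (1.13 ± 0.19, edgeR adjusted p = 0.00533). Rrm1 averaged 101 ± 17.9 CPM in ESC-derived and 131 ± 7.38 CPM in LSK cells and did not pass (-0.38 ± 0.16), although every ESC-derived library lay below every LSK library. It passed as lower with library totals only. Per kilobase of merged exons, the ratio of Rrm2 to Rrm1 was 8.01, 9.02 and 8.90 in ESC-derived and 3.22, 3.36 and 2.65 in LSK libraries. These ratios do not overlap between groups, which follows from Rrm2 lying above and Rrm1 below LSK libraries in every ESC-derived library. Tyms, the enzyme that makes thymidylate, averaged 156 ± 18.1 and 137 ± 24.2 CPM in ESC-derived and LSK cells (0.19 ± 0.16). Ung, which removes uracil from DNA, fell, with 19.3, 18.7 and 16.2 CPM in ESC-derived and 29.7, 37.1 and 34.2 CPM in LSK libraries (-0.90 ± 0.20, edgeR adjusted p = 0.0153), a call lost without LSK replicate 2.

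The Rrm2 promoter is printed as that of the risen subunit (chr12:24708004-24708253, plus strand). Its 250 bases hold a CCAAT box 50 bases before the start and none of the 3 E2F sequences.
Rrm2: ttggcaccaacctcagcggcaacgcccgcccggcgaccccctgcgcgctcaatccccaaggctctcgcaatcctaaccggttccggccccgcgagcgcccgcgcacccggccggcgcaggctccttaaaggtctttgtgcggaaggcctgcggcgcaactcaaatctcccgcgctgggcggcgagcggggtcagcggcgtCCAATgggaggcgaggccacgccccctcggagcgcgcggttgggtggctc

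Of 5 genes that copy chromatin with the DNA, 2 fell, 1 rose and 2 did not pass. The falls are 40% and the rise 20% of the group, beside 15.2% and 14.8% of all genes. Cdca7 (ENSMUSG00000055612, chr2:72476159-72486893, plus strand, mm10), which brings the remodeller Hells to nucleosomes, had 41.7, 16.1 and 27.1 CPM in ESC-derived libraries, against 99.3, 114 and 128 CPM in LSK libraries. This was the largest fall of the 34 genes (-2.01 ± 0.34, edgeR adjusted p = 0.00587), 4.02-fold higher in LSK cells. Hells itself, a remodeller needed for maintenance of DNA methylation, had 39.1, 38.3 and 32.3 CPM in ESC-derived and 57.1, 59.9 and 59.2 CPM in LSK libraries (-0.68 ± 0.15, edgeR adjusted p = 0.0156), a call lost without LSK replicate 2. Slbp, which binds the stem loop of histone mRNAs, rose, with 283, 316 and 372 CPM in ESC-derived and 195, 207 and 221 CPM in LSK libraries (0.64 ± 0.13, edgeR adjusted p = 0.0110). Slbp shares 474 exon bases with the antisense gene Gm10459. Its call was lost without LSK replicate 2 and with library totals only. Uhrf1, the reader of hemimethylated DNA that recruits Dnmt1, averaged 39.0 ± 8.82 CPM in ESC-derived and 59.6 ± 11.9 CPM in LSK cells (-0.61 ± 0.24), and passed as lower with DESeq2 and with library totals only. Chaf1b, of the histone chaperone CAF-1, averaged 49.4 ± 11.4 and 65.8 ± 4.16 CPM in ESC-derived and LSK cells (-0.41 ± 0.19), and passed as lower with library totals only and without ESC-derived replicate 1.

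Regulators of S phase entry held the largest rise. Ccne1 (ENSMUSG00000002068, chr7:38097984-38107534, minus strand, mm10), a cyclin that drives Cdk2 at the G1 to S transition, had 61.4, 56.9 and 58.1 CPM in ESC-derived libraries, against 19.3, 17.5 and 9.10 CPM in LSK libraries, a 3.84-fold rise (1.94 ± 0.30, edgeR adjusted p = 0.00405). Its coefficient of variation was 3.96% in ESC-derived and 35.6% in LSK libraries. Ccne2, the other cyclin E gene, averaged 17.0 ± 5.09 CPM in ESC-derived and 14.1 ± 5.03 CPM in LSK cells and overlaps between groups (0.27 ± 0.37). Ccne2 shares 609 exon bases with Ints8 on the opposite strand, which drew 5254 counts. E2f1, an activator of S phase genes, fell, with 21.9, 18.7 and 10.6 CPM in ESC-derived and 40.9, 37.2 and 35.2 CPM in LSK libraries (-1.14 ± 0.30, edgeR adjusted p = 0.0274), a call lost without ESC-derived replicate 2 or any one of the LSK libraries. E2f8, an atypical E2F that represses such genes, had 2.28, 8.22 and 2.94 CPM in ESC-derived and 15.8, 12.5 and 6.86 CPM in LSK libraries and did not pass (-1.38 ± 0.61). Without ESC-derived replicate 2 it passed as lower. E2f8 shares 610 exon bases with Gm2788 on the opposite strand.

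The Ccne1 promoter is shown because Ccne1 had the largest rise. The letters of the 3 E2F sequences and of the CCAAT box do not occur in the 250 bases before its start (chr7:38107491-38107740, minus strand), which says nothing of the factors themselves.
Ccne1: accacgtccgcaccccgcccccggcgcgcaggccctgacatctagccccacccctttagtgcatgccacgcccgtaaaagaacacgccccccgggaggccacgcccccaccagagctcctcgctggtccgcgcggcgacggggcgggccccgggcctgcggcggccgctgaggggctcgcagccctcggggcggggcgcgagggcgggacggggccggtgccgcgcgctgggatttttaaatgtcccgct

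**Figure D2:**
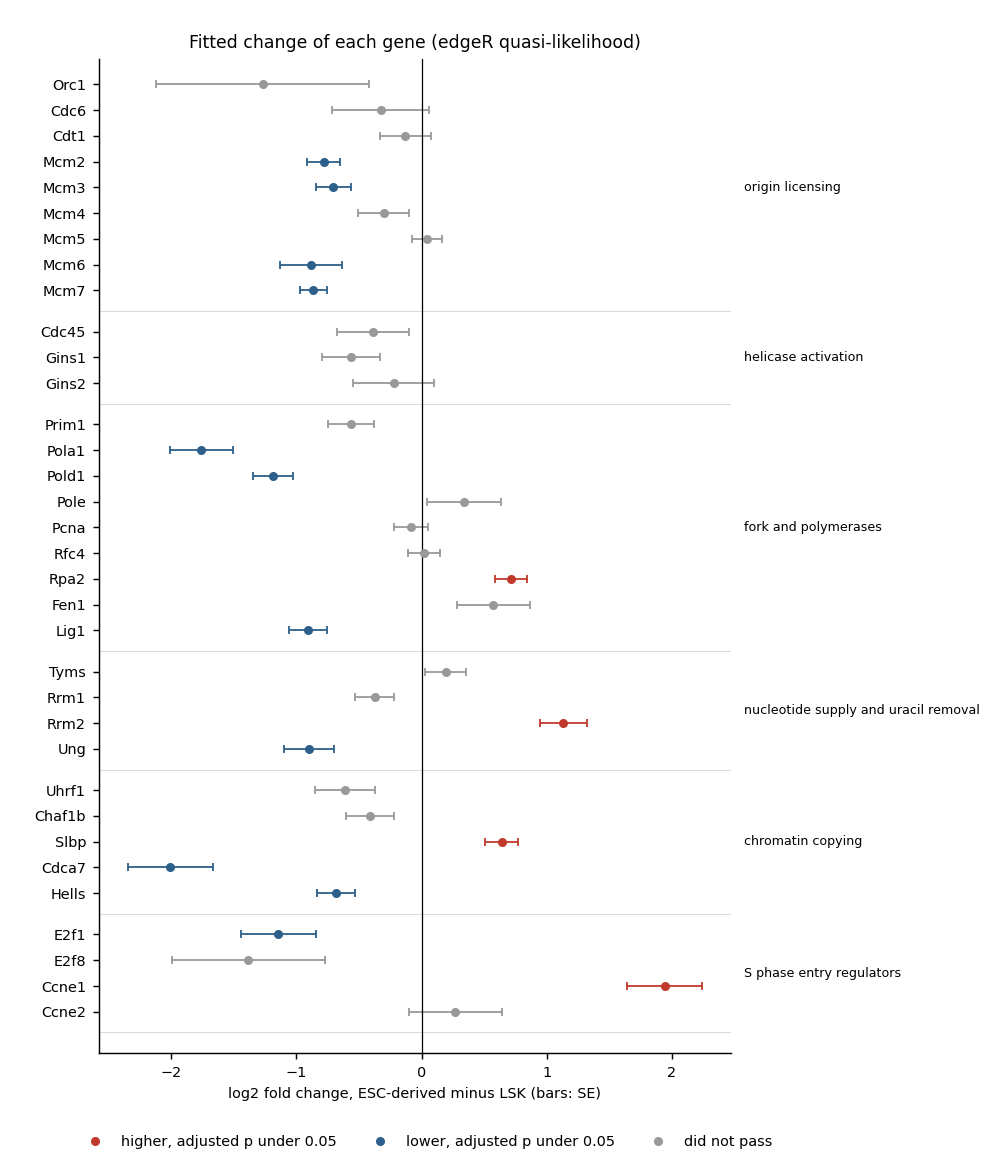
Fitted log2 fold change, ESC-derived minus LSK, of the 34 genes with its SE, by role, coloured by whether the gene rose, fell or did not pass at an adjusted p of 0.05. Values run from -2.01 for Cdca7 to 1.94 for Ccne1, and 24 of the 34 points lie below 0.

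RefSeq held promoters for 29 of the 34 genes, 34 windows in all, each from 250 bases before to 50 after the start. Any of the 3 E2F sequences occurred in 13 of these 34 windows (38.2%), beside 1.84% of the 32851 windows of all genes. The share with a CCAAT box, a common promoter element, was 52.9%, beside 37.4% of all windows, and TTTGAA, the letters of the element called CHR, was in 11.8%, beside 17.9%. By gene, an E2F sequence was found in 8 of the 11 that fell, 0 of the 4 that rose and 5 of the 14 with a window that did not pass. These are matches of exact letters in a fixed window, with no measurement of binding. Sites with other letters or outside the window are not counted, and the split by call was not tested.

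Levels per kilobase of merged exons placed Pcna at the top of both groups, at 179 CPM per kb in ESC-derived and 189 CPM per kb in LSK cells, and Orc1 at the bottom, at 0.557 CPM per kb in ESC-derived and 1.34 CPM per kb in LSK cells. The order between them changed. Ccne1 ranked 12 of 34 in ESC-derived and 29 in LSK cells, Rrm2 ranked 3 in ESC-derived and 9 in LSK cells, and Cdca7 ranked 23 in ESC-derived and 10 in LSK cells. Within the Mcm ring the highest subunit exceeded the lowest by 4.22-fold in ESC-derived and 4.21-fold in LSK cells. Mcm6 led in LSK cells, at 79.2 CPM per kb, and Mcm5 in ESC-derived cells, at 46.2 CPM per kb. Merged exon length counts exons of rare isoforms too, so these levels are approximate.

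Ratios within a library do not depend on scaling between libraries. For 8 gene pairs that share a complex or a role, chosen after gene values were seen, 6 ratios had no overlap between groups. Of single genes tested, 49.8% had no overlap, and the share over all gene pairs was not computed. The ratio of Ccne1 to Ccne2 was 3.92, 6.68 and 3.96 in ESC-derived and 2.42, 1.91 and 0.602 in LSK libraries. Mcm6 to Mcm5 averaged 0.923 ± 0.253 in ESC-derived and 1.77 ± 0.0774 in LSK libraries. For E2f2, an activating E2F, over E2f1 the values were 0.826, 0.396 and 1.62 in ESC-derived and 0.134, 0.103 and 0.114 in LSK libraries. The separation of the E2f2 to E2f1 ratio follows from E2f2 lying above and E2f1 below LSK libraries in every ESC-derived library. The ratio of Cdca7 to its partner Hells was 2.40, 0.948 and 1.89 in ESC-derived and 3.92, 4.28 and 4.86 in LSK libraries. Pola1 over Prim1, subunits of one complex, was 0.169 ± 0.0516 in ESC-derived and 0.392 ± 0.140 in LSK libraries. Because of how the pairs were chosen, the ratios are given as a description, with no test. The ratios of Rpa2 to Rpa1 and of Chaf1b to Chaf1a overlap between groups.

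**Figure D3:**
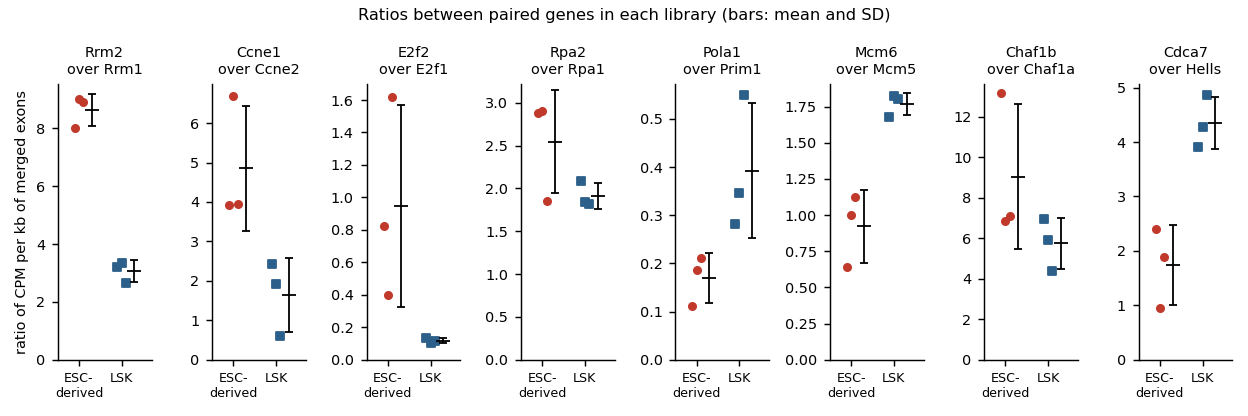
Ratio of CPM per kilobase between the genes of 8 pairs, with 1 point per library, ESC-derived left of LSK, and the mean and SD as bars. Rrm2 over Rrm1 averaged 8.64 in ESC-derived and 3.08 in LSK libraries, and Rpa2 over Rpa1 overlaps between groups.

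Replicates of the 34 genes spread more in ESC-derived than in LSK libraries. The median coefficient of variation was 20.1% in ESC-derived and 11.3% in LSK libraries, beside 26.8% in ESC-derived and 16.2% in LSK libraries for 10802 other genes in the same range of CPM. It was lower in LSK libraries for 27 of the 34 genes. The widest spreads in the ESC-derived group belonged to Orc1 (93.0%), E2f8 (72.7%), Cdc6 (49.7%) and Cdca7 (45.3%).

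Of 49 further genes of the replication machinery, 7 fell, 5 rose and 37 did not pass, with a median of -0.29. The falls are 14.3% and the rises 10.2% of the list, near or below the 15.2% and 14.8% of all genes. Pclaf, a protein that binds PCNA, rose to 395, 431 and 408 CPM in ESC-derived libraries, against 171, 162 and 150 CPM in LSK libraries (1.35 ± 0.10, edgeR adjusted p = 0.000184). Gins4, a subunit of the GINS complex, rose as well (0.62 ± 0.14), a call lost when LSK replicate 1 or 2 was left out and with library totals only. Rfc2, of the clamp loader, had 214, 162 and 170 CPM in ESC-derived and 512, 477 and 443 CPM in LSK libraries (-1.39 ± 0.14, edgeR adjusted p = 0.000661). Topbp1, a scaffold of origin firing and of the checkpoint, fell too (-1.39 ± 0.19). Counts changed with the setting, here and over all genes. Falls numbered 4, 2 and 4 without LSK replicates 1, 2 and 3, 14 with DESeq2 and 17 with library totals only. Rises numbered 1 without LSK replicate 1 or 2, 3 without ESC-derived replicate 3 and 2 with library totals only. Over all genes, 7.34% fell and 8.61% rose without LSK replicate 2, and 18.9% and 10.8% with library totals only. For the other settings named no share of all genes is given, so those counts are no result about the list.

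Among 26 further genes of nucleotide supply, 5 fell and 3 rose (median -0.13), which is 19.2% and 11.5% beside 15.2% and 14.8% of all genes. Nme1, a nucleoside diphosphate kinase (1.30 ± 0.09), and Samhd1, which breaks down deoxynucleotides (1.49 ± 0.13), rose. Dtymk, the thymidylate kinase (-1.04 ± 0.11), and Dctpp1, a deoxycytidine triphosphatase (-0.91 ± 0.10), fell. Falls numbered 3 without any one of the LSK libraries and 8 with library totals only. Of all genes, 7.34% fell without LSK replicate 2 and 18.9% with library totals only. The share of all genes without LSK replicate 1 or 3 is not given, so those counts cannot be compared.

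Of 14 further chromatin copying genes, 4 fell and 2 rose (median -0.25), which is 28.6% and 14.3% beside 15.2% and 14.8% of all genes. Asf1b, a chaperone that hands histones to CAF-1, had 372, 473 and 420 CPM in ESC-derived libraries, against 110, 94.5 and 77.2 CPM in LSK libraries (2.17 ± 0.17, edgeR adjusted p = 0.000235), a 4.49-fold rise. Rbbp4, a histone-binding subunit of CAF-1, rose by 0.66 ± 0.16. Dnmt1, the maintenance DNA methyltransferase, fell (-0.98 ± 0.15), as did Cdca7l, the paralogue of Cdca7 (-0.88 ± 0.21). Without ESC-derived replicates 2 or 3 the falls numbered 2, and without LSK replicates 2 or 3 they numbered 1. Leaving out ESC-derived replicate 1 or 3, or LSK replicate 2, left 1 rise, as did scaling by library totals. Beside these, 7.34% of all genes fell and 8.61% rose without LSK replicate 2, and 10.8% rose with library totals only. Shares of all genes are not given for the other libraries left out, so those counts cannot be compared.

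The RB and E2F pathway had 7 falls and 5 rises among 26 genes tested of 27 listed (median -0.02), which is 26.9% and 19.2% beside 15.2% and 14.8% of all genes. D-type cyclins partner Cdk4 and Cdk6, which phosphorylate RB. Ccnd2 had 1049, 1050 and 964 CPM in ESC-derived libraries, against 417, 414 and 429 CPM in LSK libraries (1.28 ± 0.09, edgeR adjusted p = 0.000128), and Ccnd3 rose by 1.56 ± 0.12. Cdk4 had 167, 166 and 186 CPM in ESC-derived and 463, 391 and 401 CPM in LSK libraries (-1.27 ± 0.11, edgeR adjusted p = 0.000369), and Cdk6 fell as well (-1.14 ± 0.16). The falls numbered 3 without LSK replicate 2, beside 7.34% of all genes, and 4 without ESC-derived replicate 1. No share of all genes is given for the latter setting, so its count cannot be compared.

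Checkpoint and fork repair genes had 6 falls and 0 rises among 25 by edgeR (0 rises at an unadjusted p under 0.05, by DESeq2 or by voom), with a median of -0.61. The falls are 24% of the list, beside 15.2% of all genes, and the rises 0%, beside 14.8%. Wee1, the kinase that restrains Cdk1 and Cdk2, had 14.0, 16.2 and 8.20 CPM in ESC-derived libraries, against 103, 66.5 and 52.2 CPM in LSK libraries (-2.53 ± 0.36, edgeR adjusted p = 0.00298). Brca2, which protects stalled forks, fell as well (-1.94 ± 0.30). Without LSK replicate 2, 3 of these genes fell, beside 7.34% of all genes.

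The mitosis list had 8 rises and 2 falls among 26 genes, with a median of 0.38. The rises are 30.8% of the list, beside 14.8% of all genes, and the falls 7.69%, beside 15.2%. Ube2c, the ubiquitin-conjugating enzyme of the anaphase-promoting complex, had 263, 311 and 334 CPM in ESC-derived libraries, against 80.5, 96.3 and 101 CPM in LSK libraries (1.71 ± 0.14, edgeR adjusted p = 0.000342). Cdc20, the activator of that complex, rose by 1.17 ± 0.11. Kif23, a kinesin of cytokinesis (-1.06 ± 0.22), and Bub1b, of the spindle checkpoint (-1.04 ± 0.26), fell. The summed level of the mitosis list was 2483, 2812 and 2993 CPM in ESC-derived and 1840, 1754 and 1664 CPM in LSK libraries. The falls numbered 1 without ESC-derived replicate 2 and without LSK replicates 2 or 3. Over all genes, 7.34% fell without LSK replicate 2. No such share is given without ESC-derived replicate 2 or LSK replicate 3, so those counts cannot be compared. The difference between the mitosis and replication lists was not tested.

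**Figure D4:**
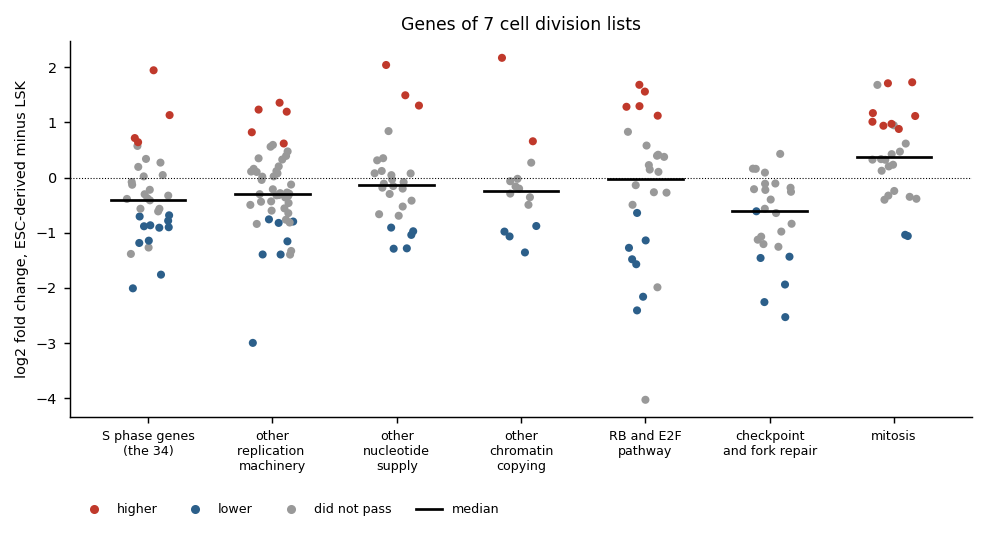
Log2 fold change, ESC-derived minus LSK, of single genes (points, spread sideways for clarity) in the 34 S phase genes and 6 further lists, with medians as bars. Medians run from -0.61 for checkpoint and fork repair to 0.38 for mitosis.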

How the data were processed

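The table deposited by the authors holds estimated counts, as whole numbers without normalization, for each Ensembl gene ID. HISAT, StringTie and mm10 appear in the submitters' processing notes; the annotation and the counting program and its settings are unknown. Per the labels' protocols, cDNA came from the SMART-Seq v4 kit and libraries from Nextera XT, which do not mark strand. The header holds its 6 column names in a single field, read in order. Of values from 1 to 20, 40.1 to 47.2% were divisible by 4; the origin of this was not tested. Symbols, positions and exon lengths come from GENCODE M21 (55141 of 55401 IDs matched), and promoters from RefSeq.

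Values were used as they stand. Genes passed filterByExpr (16211), were given TMM factors and fitted in edgeR 4.0.16 under R 4.3.3 (robust quasi-likelihood, two-sided F test of ESC-derived minus LSK without replicate terms, Benjamini-Hochberg over all genes, threshold 0.05). CPM uses TMM-scaled totals. The fit was tested on simulated counts. Library totals ran from 41580006 to 49269286, and precision rests on the spread between libraries and on their number.

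The 34 genes and all lists were chosen with earlier results of these data known. All 34 are described, along with up to 2 higher and 2 lower genes by adjusted p of each further list, and any other gene named was picked with its values in view. Alternatives were DESeq2 1.42.0, limma-voom (limma 3.58.1), RLE, upper quartile and library-total scaling, no filter, a filter of 50 counts in 3 libraries, thinning to the smallest library, a replicate block, values divided by 4, removal of receptor genes, and each library left out.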

Additional observations from a re-analysis of the deposited data

How the results depend on the processing

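Of 15 calls among the 34 genes, 10 held under all 17 alternatives, 3 higher (Ccne1, Rrm2, Rpa2) and 7 lower (Mcm2, Mcm3, Mcm7, Pola1, Pold1, Lig1, Cdca7). Falls numbered 7 to 12 and rises 3 to 4 when a single library was left out, the low end without LSK replicate 2. Over all genes, calls then ran from 1466 to 2163 higher and from 1250 to 2440 lower, with 17030 to 17852 genes tested. Leaving a library out also leaves fewer samples. The median log2 fold change of the list was -0.65 with library totals only, where the median of all genes moved to -0.32, and the summed level was 2809 CPM in ESC-derived and 3821 CPM in LSK cells. It was 3198 CPM in ESC-derived and 3690 CPM in LSK cells without immunoglobulin and T cell receptor genes, through smaller totals. No called gene of the 34 changed direction. Uncalled genes near 0 did. With library totals only, Mcm5 was at -0.196, Rfc4 at -0.232 and Tyms at -0.0666, and Rfc4 was at -0.00603 with DESeq2 and -0.00601 with RLE. With single libraries left out, the ranges were -0.0245 to 0.0972 for Mcm5, -0.385 to 0.039 for Gins2, -0.221 to 0.00532 for Pcna and -0.0567 to 0.0825 for Rfc4. Deviations from the group means correlated little between same-numbered libraries (0.0323, -0.0375 and 0.019 over 8239 genes). Not every library correlated best with its own number. The labels do not say whether a number marks a shared animal, batch or day, and correlations this low cannot decide it. With the replicate block, 1488 of the 16211 genes tested were lower and 1732 higher. Of the 34 genes, 9 fell and 4 rose, Ung and Hells no longer passing. Of other genes named, Rbbp4, E2f3, E2f6 and Bub1b did not pass. In the shorter window of 100 bases before to 50 after the start, 1.01% of all and 26.5% of the list's promoter windows held an E2F sequence.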

Other observations

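Among the 6 E2F genes outside the 34, 2 rose, 2 fell and 2 did not pass. Of all genes, 14.8% were called higher and 15.2% lower. These E2F genes and the partners below were chosen after their values were seen. E2f2, an activator, had 28.0, 11.5 and 26.6 CPM in ESC-derived libraries, against 8.48, 5.93 and 6.23 CPM in LSK libraries, and rose (log2 fold change 1.68 ± 0.41 SE, edgeR adjusted p = 0.0218), a call lost without ESC-derived replicate 1 or 3 or LSK replicate 2 or 3. E2f3, a further activator, had 1.81, 6.75 and 2.91 CPM in ESC-derived and 22.7, 16.5 and 12.1 CPM in LSK libraries and fell (-2.16 ± 0.57, edgeR adjusted p = 0.0282), a call lost without either of ESC-derived replicates 1 and 3 or LSK replicates 1 and 2. E2f4, which acts with the pocket proteins in resting cells, had 184, 176 and 272 CPM in ESC-derived and 82.4, 96.9 and 78.7 CPM in LSK libraries (1.29 ± 0.20, edgeR adjusted p = 0.00383). E2f6, a repressor, was lower (-1.48 ± 0.45, edgeR adjusted p = 0.0482), a call lost with no low-count filter and without any one library except ESC-derived replicate 3. E2f5 (0.83 ± 0.40) and E2f7 (-0.14 ± 0.43) did not pass. Rbl2, the pocket protein p130, rose alongside (1.12 ± 0.20), and Tfdp2, a dimer partner of E2F proteins, fell (-2.41 ± 0.34). The calls of E2f4, Rbl2 and Tfdp2 held under all 17 alternatives.

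Genes often used as markers of cycling cells differed in their calls. Plk1 (1.73 ± 0.19), Ccnb2 (1.11 ± 0.12), Aurka (0.97 ± 0.15) and Birc5 (0.94 ± 0.16), which act in mitosis, rose, while Mki67 and Top2a did not pass; all 6 were chosen after their values were seen. Mki67, the source of the Ki-67 antigen, averaged 96.1 ± 13.5 CPM in ESC-derived and 83.6 ± 16.7 CPM in LSK cells (n = 3 each, ± SD, log2 fold change 0.20 ± 0.19 SE). Top2a, the topoisomerase of chromosome condensation, averaged 105 ± 20.9 and 124 ± 17.2 CPM in ESC-derived and LSK cells (-0.24 ± 0.19). Mthfd2, a mitochondrial enzyme of folate metabolism, had 78.2, 64.7 and 81.0 CPM in ESC-derived and 14.8, 17.4 and 22.3 CPM in LSK libraries, and its rise (2.04 ± 0.21, edgeR adjusted p = 0.000787) held under all 17 alternatives.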
